A study of Zea mays with 6 samples.

Results

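The genes described here are the maize matches of the plant circadian clock, of the photoreceptors that set it, and of the photoperiod pathway it drives. They were taken from the expression table of a study of *incompletely fused carpels* (*ifc*), a phenotype of maize in which the stylar canal of the ovary is not closed. A row was a member if its transcription factor family was CO-like or DBB (22 rows), or if the symbol of its closest *Arabidopsis* gene was that of a clock, photoreceptor or photoperiod gene (44 rows). This gave 66 of the 25368 rows, each with a gene identifier of its own. They comprise 23 clock genes, 18 light input genes and 25 output genes. The rule itself uses family names and symbols and no measured value.

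RNA was sequenced from 3 libraries of *ifc* ovaries and 3 libraries of wild-type (WT) ovaries, all collected before pollination from unstressed field plants of the inbred line Yu-A474. The labels call the groups IFC mutant and wild type by genotype, but per the methods an *ifc* ovary and its WT partner stood side by side in the middle of an ear of this 1 line. The comparison is therefore between ovaries with open and closed stylar canals on the same ears, told apart by their appearance, and not between plants with and without an allele. Each set of ovaries was taken from 1 ear at the same time of day, and the replicates came from 3 ear rows. The deposited table gives each gene 1 value per phenotype in FPKM (sequenced fragments scaled to transcript length and to the size of the library), computed by the authors from the reads of the libraries pooled. No spread between libraries can therefore be had from it, no test was possible, and every ratio below lacks a replicate check. The depth of the libraries is not part of the table, so no counting interval was computed either.

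In *Arabidopsis*, where these genes are best known, the clock is a loop of repressors. The MYB proteins LHY and CCA1 act around dawn, a series of PSEUDO-RESPONSE REGULATOR (PRR) proteins follows through the day, and TOC1 with the evening complex of ELF3, ELF4 and LUX acts at dusk and into the night. Phytochromes sense red and far-red light and cryptochromes blue light, and the ubiquitin ligase of COP1 and SPA proteins degrades light-signalling factors in darkness. The clock and light together set when CONSTANS (CO) can switch on FT, the mobile flowering signal made in leaves. Transcripts of clock genes swing over the day, so that a level taken at 1 time says nothing of a rhythm.

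Clock and photoperiod genes were widely expressed in both kinds of ovary and differed little between them. Of the 66 members, 57 had an FPKM above 2 in *ifc* or WT, the level above which the study compared genes, and 9 did not. A single member, a *COL5* match, was past 1.5-fold in *ifc* ovaries (1.75% of 57), where 4.13% of all 21093 rows above the same level were past 1.5-fold higher in *ifc*. No member was past 1.5-fold lower in *ifc*, against 2.55% of all rows. A difference past 1.25-fold in either direction was found in 9 of the 57 members (15.8%), against 21.3% of all rows. The median log2 ratio of *ifc* over WT was -0.05 for the members and -0.02 for all rows, and the median size of the log2 ratio, whatever its sign, was 0.12 for the members and 0.15 for all rows. Values of *ifc* were higher in 22 members and lower in 35 (38.6% higher), and higher in 45.9% of all rows. These shares depend on how the phenotypes are scaled, since the members lie close to a ratio of 1: with the same median ratio set for both phenotypes, 27 members were higher and 30 lower, and with the same total FPKM apart from the row of highest FPKM, 17 were higher and 40 lower.

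Among the 33 members with a mean of at least 10 FPKM, log2 ratios ran from -0.33 to 0.27, with a median size of 0.08 against 0.13 for the 12303 rows at that level. The members with larger ratios were weakly expressed. Of the 57, 3 were above 2 FPKM in 1 phenotype alone, so that they had to differ, and these carry the largest sizes of the ratio, at log2 0.77, 0.49 and -0.44. The other 54 members, above 2 FPKM in both *ifc* and WT, ran from -0.33 to 0.43 with none past 1.5-fold, where 4.94% of the 20195 rows above 2 FPKM in both were past it in either direction.

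**Figure D1:**
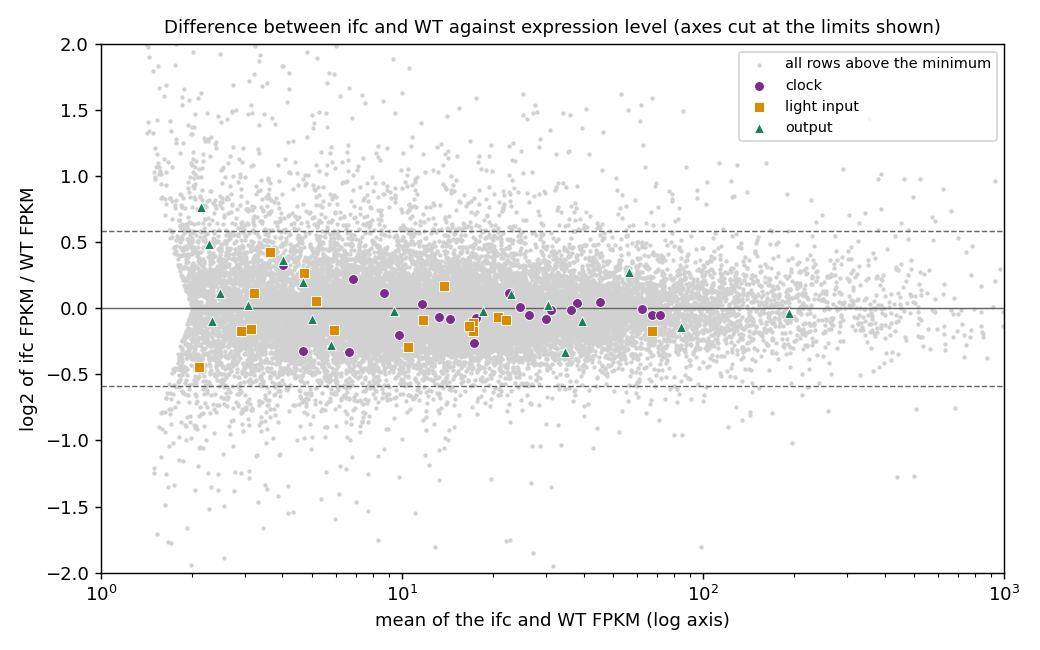
Log2 of the *ifc* over WT FPKM of each row (vertical axis) against the mean of the *ifc* and WT FPKM (horizontal, log axis), for all rows with an FPKM above 2 in either phenotype (grey) and the 57 member rows (clock, light input and output genes by colour and shape). The dashed lines mark 1.5-fold. A single output gene lies above the upper line, at a mean of 2.14 FPKM, and no member lies under the lower line.

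Of the clock genes that act around dawn and their relatives, the *LHY* matches were strongly expressed, and the levels of the others varied widely. GRMZM2G014902 (chromosome 4, 32527345 to 32560791, B73 RefGen_v3), a match of *LHY*, had 66.1 FPKM in *ifc* and 68.4 FPKM in WT. The other *LHY* match, GRMZM2G474769 (chromosome 10, 78333990 to 78337257), had 25.9 FPKM in *ifc* and 26.8 FPKM in WT. Both were at a log2 ratio of -0.05, and the levels of the pair differed from each other 2.56-fold. No row had *CCA1* as its match. The *REVEILLE* (*RVE*) genes encode MYB relatives of LHY, several of which are clock-regulated in *Arabidopsis*. GRMZM2G175265, a match of *RVE2*, had 46.2 FPKM in *ifc* and 44.6 FPKM in WT. Its start lies 19.5 kb from the end of the second *LHY* match on the same strand of chromosome 10. RefSeq lists both identifiers under 1 gene in a later assembly, so this pair may be pieces of a single gene, and the 66 members may then be 65 genes. GRMZM2G145041, the other *RVE2* match, had 9.08 FPKM in *ifc* and 10.4 FPKM in WT (log2 ratio -0.20). The *RVE7* match GRMZM2G170322 had 4.45 FPKM in *ifc* and 3.55 FPKM in WT (log2 ratio 0.33), the highest ratio of the clock genes. The *RVE1* match GRMZM2G181030 stayed under the minimum, at 1.40 FPKM in *ifc* and 1.61 FPKM in WT.

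PRR proteins repress the dawn genes in turn. GRMZM2G095727 (chromosome 9, 138861830 to 138870925), described as PRR73 and matched to *PRR7*, had 62.5 FPKM in *ifc* and 62.7 FPKM in WT. With the values as deposited, this was the smallest difference of any member. The other matches of *PRR7* were much weaker and lay on opposite sides of a ratio of 1. GRMZM2G005732 had 7.41 FPKM in *ifc* and 6.35 FPKM in WT (log2 ratio 0.22), whereas GRMZM2G033962 had 5.88 FPKM in *ifc* and 7.41 FPKM in WT (log2 ratio -0.33, the lowest of the clock genes). The matches of *PRR9* also lay on both sides. GRMZM2G367834 had 15.7 FPKM in *ifc* and 18.9 FPKM in WT (log2 ratio -0.26), and GRMZM2G488465 had 9.04 FPKM in *ifc* and 8.32 FPKM in WT (log2 ratio 0.12). The *PRR5* match GRMZM2G179024 had 17.1 FPKM in *ifc* and 18.0 FPKM in WT (log2 ratio -0.07).

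*TOC1*, which closes the loop in the evening, had matches that were both a little lower in *ifc* under each scaling tried apart from that to the same total FPKM. GRMZM2G020081 (chromosome 4, 140726568 to 140729617) had 12.9 FPKM in *ifc* and 13.5 FPKM in WT. GRMZM2G148453 (chromosome 5, 185462386 to 185465012) had 4.15 FPKM in *ifc* and 5.20 FPKM in WT. The log2 ratio was -0.07 for the stronger of the pair and -0.32 for the weaker, neither past 1.5-fold.

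The remaining clock members are matches of genes other than *LHY*, *RVE*, *TOC1* and *PRR*. GIGANTEA (GI) stabilizes the F-box proteins ZEITLUPE (ZTL) and FKF1, which read blue light and mark clock and photoperiod proteins for degradation. The genes described as Gigantea 1A and Gigantea 1B were both abundant. Gigantea 1A (GRMZM2G107101, chromosome 8, 21104079 to 21112487) had 70.6 FPKM in *ifc* and 73.0 FPKM in WT, and was the strongest clock gene. Gigantea 1B (GRMZM5G844173, chromosome 3, 9306236 to 9317285) had 31.1 FPKM in *ifc* and 31.3 FPKM in WT. The *ZTL* matches GRMZM2G147800, GRMZM2G113244 and GRMZM2G115914 had 36.1, 24.7 and 23.6 FPKM in *ifc*, and 36.4, 24.5 and 21.7 FPKM in WT. These 3 copies were near each other in level, with log2 ratios from -0.01 to 0.12. The *FKF1* matches GRMZM2G107945 and GRMZM2G106363 had 29.3 and 14.0 FPKM in *ifc*, and 31.0 and 14.9 FPKM in WT, both at a log2 ratio of -0.08. The evening complex was represented by matches of *ELF3*. GRMZM2G045275 had 38.7 FPKM in *ifc* and 37.5 FPKM in WT. AC233870.1_FG003 had 11.7 FPKM in *ifc* and 11.5 FPKM in WT. Their log2 ratios of 0.04 and 0.03 changed sign with the scaling of the phenotypes. No row had *ELF4* as its match, and 2 *LUX* matches of the G2-like family lay outside the rule. The stronger of these, GRMZM2G067702, had 3.09 FPKM in *ifc* and 3.35 FPKM in WT, and GRMZM2G074908 stayed under the minimum, at 1.07 FPKM in *ifc* and 0.564 FPKM in WT.

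Over the 22 clock genes above the minimum, 8 were higher and 14 lower in *ifc* (36.4% higher, against 45.9% of all rows). Their median log2 ratio was -0.03, with a range of -0.33 to 0.33. None was past 1.5-fold, where 4.13% of all rows were past it higher and 2.55% lower. The median size of the log2 ratio was 0.07, the smallest of the 3 groups. It was 0.16 for light input and 0.11 for output genes. The groups also differ in level: 16 clock, 9 light input and 8 output genes had a mean of at least 10 FPKM. Among these the median size was 0.05, 0.13 and 0.10. Whether the groups differ in size of the ratio was not tested.

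**Figure D2:**
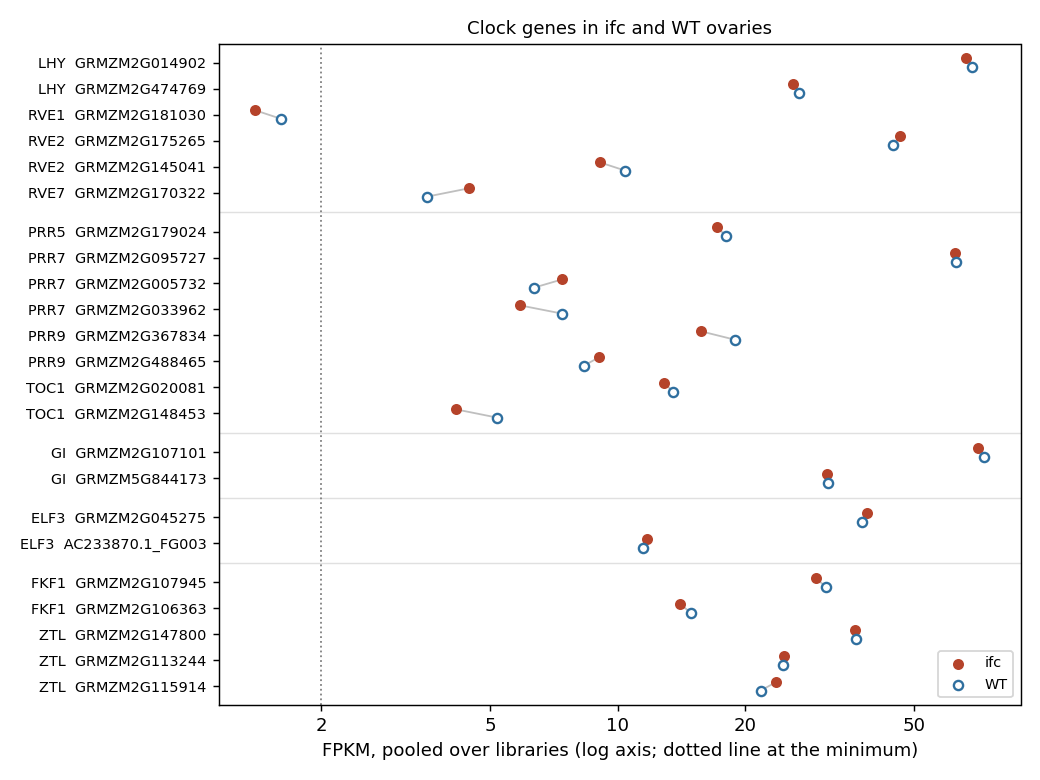
FPKM of the 23 clock genes (horizontal, log axis) in *ifc* (filled) and WT (open), each point 1 value pooled over libraries, with the *Arabidopsis* match and the maize identifier at the left. The dotted line marks 2 FPKM. Of the 22 genes above this line, 19 are within 1.25-fold, and levels run from 70.6 FPKM in *ifc* and 73.0 FPKM in WT for Gigantea 1A down to 1.40 FPKM in *ifc* and 1.61 FPKM in WT for the *RVE1* match.

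Among light input genes, photoreceptors and the COP1 and SPA proteins lay on opposite sides of a ratio of 1, by small amounts. In the member rows, all 5 phytochrome genes and all 6 cryptochrome genes above the minimum were lower in *ifc*. Of the 6 *COP1* and *SPA* matches, 5 were higher. Of all rows above the minimum, 45.9% were higher in *ifc*. None of these light input genes was past 1.5-fold, where 4.13% of all rows were past it higher and 2.55% lower. The counts of higher and lower rows held with the phenotypes set to the same median ratio or the same upper quartile. They also held with the same total without the row of highest FPKM, but not with the same total FPKM over all rows. The latter shifts every log2 ratio by 1.13. The others shift it by 0.02, 0.02 and -0.05. The log2 ratios nearest to no difference among these rows were 0.06 and -0.06, so those shifts could not change a sign. The phytochrome count also depends on the row read for phytochrome A, whose second, unannotated row was higher in *ifc* (log2 ratio 0.25).

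Phytochromes are red and far-red light receptors that move to the nucleus in light. The *PHYB* matches GRMZM2G124532 (chromosome 1, 50022837 to 50034523) and GRMZM2G092174 (chromosome 9, 135245566 to 135251882) had 16.5 and 9.42 FPKM in *ifc*, and 17.8 and 11.5 FPKM in WT. The weaker one, at a log2 ratio of -0.29, had the largest difference of the family, and the stronger was at -0.11. The *PHYC* matches GRMZM2G057935 and GRMZM2G129889 had 20.4 and 11.4 FPKM in *ifc*, and 21.3 and 12.1 FPKM in WT, at log2 ratios of -0.06 and -0.09. Phytochrome A, the receptor of far-red light, has the identifier GRMZM2G181028 (chromosome 5, 10110569 to 10117603) and 2 rows in the table. The annotated row, which is the member, had 2.73 FPKM in *ifc* and 3.08 FPKM in WT (log2 ratio -0.17). The second row, at the same locus and strand but without annotation, had 18.2 FPKM in *ifc* and 15.3 FPKM in WT (log2 ratio 0.25). The level of this gene and the direction of its difference thus depend on which row is read.

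Cryptochromes are blue light receptors, and in *Arabidopsis* they restrain COP1 in light. The 5 *CRY1* matches spanned a wide range of levels. GRMZM2G024739 (chromosome 5, 175774949 to 175779057) had 63.6 FPKM in *ifc* and 71.5 FPKM in WT. GRMZM2G104262, the weakest and described as cryptochrome 2, had 2.97 FPKM in *ifc* and 3.31 FPKM in WT. Between these, GRMZM2G171736, GRMZM2G049549 and GRMZM2G462690 had 21.5, 16.1 and 5.60 FPKM in *ifc*, and 22.9, 18.2 and 6.28 FPKM in WT. Although the levels of the 5 differed up to 21.5-fold, their log2 ratios lay between -0.17 and -0.09. The *CRY2* match GRMZM2G172152 had 15.9 FPKM in *ifc* and 17.4 FPKM in WT (log2 ratio -0.13). The *CRY3* match GRMZM2G103897 stayed under the minimum, at 1.61 FPKM in *ifc* and 1.41 FPKM in WT. A second, unannotated row of GRMZM2G462690 was also under it, at 0.832 FPKM in *ifc* and 1.19 FPKM in WT.

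COP1 is the ubiquitin ligase that keeps light responses off in darkness, and SPA proteins are its partners. The *COP1* match GRMZM2G104920 (chromosome 5, 210789913 to 210798455) had 14.5 FPKM in *ifc* and 12.9 FPKM in WT (log2 ratio 0.17). The other *COP1* match, GRMZM2G126795, had 3.36 FPKM in *ifc* and 3.10 FPKM in WT (log2 ratio 0.12). The *SPA4* matches GRMZM2G079904 and GRMZM2G061602 had 5.14 and 4.18 FPKM in *ifc*, and 4.27 and 3.10 FPKM in WT, and the second of them, at a log2 ratio of 0.43, was the highest light input gene. The *SPA1* match GRMZM2G020291 had 5.27 FPKM in *ifc* and 5.07 FPKM in WT. The *SPA2* match GRMZM2G145556 was the exception to the direction, with 1.79 FPKM in *ifc* and 2.43 FPKM in WT (log2 ratio -0.44), and was above the minimum in WT alone. Apart from the stronger *COP1* match, all of these genes were weakly expressed. Over the 17 light input genes above the minimum, 5 were higher and 12 lower in *ifc* (29.4% higher, against 45.9% of all rows), with a median log2 ratio of -0.11.

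**Figure D3:**
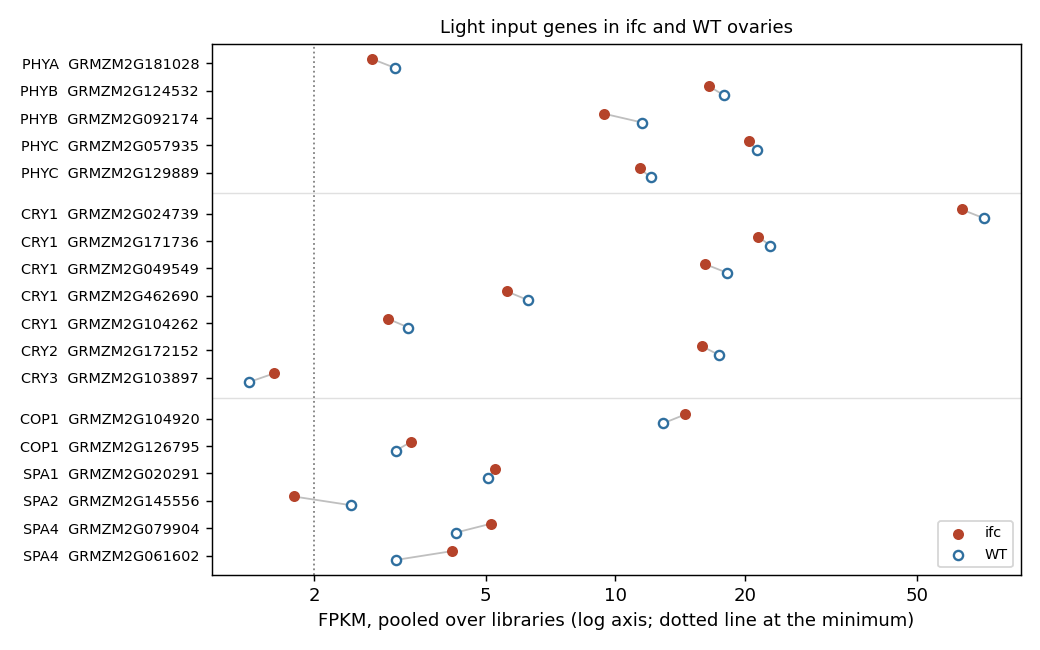
FPKM of the 18 light input genes (horizontal, log axis) in *ifc* (filled) and WT (open), each point 1 value pooled over libraries. The dotted line marks 2 FPKM. With the values as deposited, the *ifc* point lies to the left of the WT point for the 5 phytochrome and the 6 *CRY1* and *CRY2* rows, and to the right for 5 of the 6 *COP1* and *SPA* rows. Setting both phenotypes to the same total FPKM would put it to the right in all rows above the minimum.

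The output genes held both the strongest member and most of the weakest. The FT protein carries the flowering signal from leaf to shoot tip. 3 rows had *FT* as their match, and none had *TSF* or *TFL1*. The gene ZCN14 (GRMZM2G373928, chromosome 8, 25338662 to 25347919) had 80.1 FPKM in *ifc* and 88.3 FPKM in WT (log2 ratio -0.14), higher than 94.5% of all rows in its mean level. ZCN8 (GRMZM2G179264, chromosome 8, 123029157 to 123034152), the gene held to encode the maize florigen, had 0.506 FPKM in *ifc* and 0.490 FPKM in WT in its annotated row. As for phytochrome A, the table has a second row without annotation at the same locus and strand. There ZCN8 had 8.63 FPKM in *ifc* and 9.42 FPKM in WT (log2 ratio -0.13). ZCN25 (GRMZM2G021560) had 0.690 FPKM in *ifc* and 0.761 FPKM in WT. Among the annotated rows, levels of the *FT* matches thus spanned 169-fold, with ZCN14 alone above 1 FPKM. Read from its second row, ZCN8 would also be above the minimum and the span would be narrower.

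CO-like proteins carry B-box zinc fingers and a CCT domain, as CONSTANS itself does, and 13 rows belonged to this family. GRMZM2G038783 (chromosome 9, 108447973 to 108449794), a match of *COL4*, was the strongest of all members. It had 189.7 FPKM in *ifc* and 194.3 FPKM in WT (log2 ratio -0.03), above 98.1% of all rows. The *COL3* match GRMZM2G095598 had 23.8 FPKM in *ifc* and 22.0 FPKM in WT, and the *COL9* match GRMZM2G013398 had 18.4 FPKM in *ifc* and 18.6 FPKM in WT. These 3 were the CO-like genes above 10 FPKM, and none was past 1.25-fold. The second *COL4* match of the family, GRMZM2G092363, had 4.89 FPKM in *ifc* and 5.15 FPKM in WT, and the weaker *COL9* match, GRMZM2G042198, had 2.26 FPKM in *ifc* and 2.41 FPKM in WT.

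The member past 1.5-fold belongs to a small set of *COL5* matches. AC233888.1_FG002 (chromosome 10, 127941746 to 127942849) had 2.70 FPKM in *ifc* and 1.58 FPKM in WT, a 1.70-fold rise (log2 ratio 0.77). It passed the minimum through *ifc* alone, and with 1 FPKM added to both values it was no longer past 1.5-fold. The other *COL5* matches pointed the same way by less. GRMZM2G148772 had 4.51 FPKM in *ifc* and 3.50 FPKM in WT (log2 ratio 0.37). GRMZM2G176173 had 2.57 FPKM in *ifc* and 2.38 FPKM in WT (log2 ratio 0.12). All 3 *COL5* rows were higher in *ifc* under each scaling tried, and all 3 were near the minimum. The 5 rows matched to AT1G25440, a CO-like gene without a symbol in the table, lay on both sides of a ratio of 1, and 4 of them were under the minimum. GRMZM2G041991, the one above it, had 4.999 FPKM in *ifc* and 4.35 FPKM in WT (log2 ratio 0.20), and the other 4 ran from 0.502 to 1.18 FPKM in *ifc* and from 0.545 to 1.11 FPKM in WT.

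DBB proteins have a pair of B-boxes and no CCT domain, and several of them, named after salt tolerance (STO, STH), act in the light signalling of *Arabidopsis* seedlings. GRMZM2G095299 (chromosome 5, 182486592 to 182488058), a match of *STH*, had 62.1 FPKM in *ifc* and 51.3 FPKM in WT (log2 ratio 0.27). GRMZM2G018876 (chromosome 2, 34309163 to 34357313), a match of *STO*, had 30.6 FPKM in *ifc* and 38.6 FPKM in WT (log2 ratio -0.33). These were the largest differences in either direction among all members with a mean of at least 10 FPKM. The *COL4* match of this family, GRMZM2G021777, had 38.1 FPKM in *ifc* and 40.8 FPKM in WT, and GRMZM2G143718 had 30.7 FPKM in *ifc* and 30.2 FPKM in WT.

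Among the weaker DBB genes, GRMZM2G098442, a match of *STH2*, had 2.66 FPKM in *ifc* and 1.90 FPKM in WT. At 1.40-fold it was the member nearest below the 1.5-fold threshold, and it too was above 2 FPKM in *ifc* alone. The *STH2* match GRMZM2G118884 had 3.10 FPKM in *ifc* and 3.05 FPKM in WT. The third, GRMZM2G131982, had 0.477 FPKM in *ifc* and 0.188 FPKM in WT, a large ratio at a level too low to be compared here. The match of AT5G48250, GRMZM2G075562, had 9.30 FPKM in *ifc* and 9.44 FPKM in WT. The *STH3* match GRMZM2G070446 had 5.23 FPKM in *ifc* and 6.34 FPKM in WT (log2 ratio -0.28). Over the 18 output genes above the minimum, 9 were higher and 9 lower in *ifc* (50% higher, against 45.9% of all rows), with a median log2 ratio of 0.00.

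**Figure D4:**
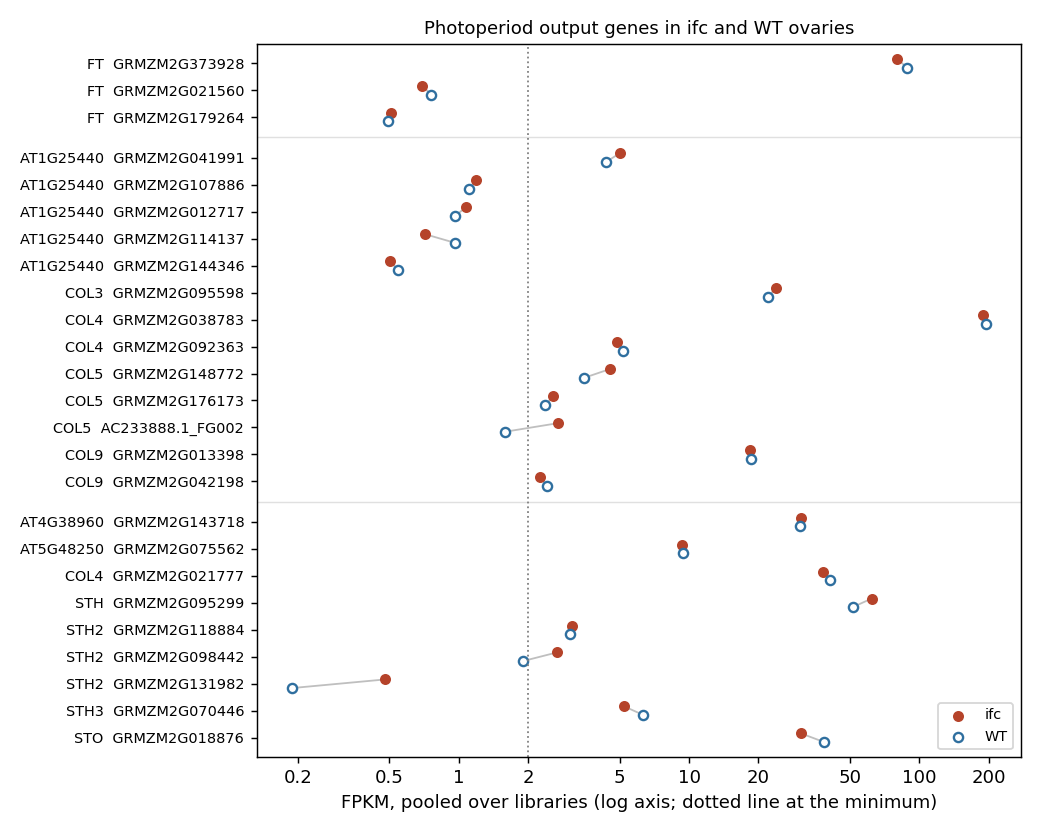
FPKM of the 25 output genes (horizontal, log axis) in *ifc* (filled) and WT (open), each point 1 value pooled over libraries, with *FT* matches at the top, CO-like genes in the middle and DBB genes at the bottom. The dotted line marks 2 FPKM. Levels run from 189.7 FPKM in *ifc* and 194.3 FPKM in WT for a *COL4* match to 0.477 FPKM in *ifc* and 0.188 FPKM in WT for an *STH2* match, and the widest gaps are in rows near or below the line.

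Maize often holds several copies of 1 *Arabidopsis* gene. Of the members, 52 rows fell into 20 sets that share a match. In 14 sets the strongest row was more than 2-fold above the weakest in mean level. With the values as deposited, in 14 sets all rows lay on the same side of a ratio of 1, and in 6 they did not. In 4 of these, *PRR7*, *PRR9*, *ZTL* and *RVE2*, rows above the minimum lay on both sides, whereas *FT* and AT1G25440 had only 1 member row above it each. Rows of close copies can share reads, which the authors' correction for multi-mapped reads divides between them, so that the values of copies are less certain than those of single genes. The loci of 4 members, the *STO* match, ZCN25, the *RVE7* match and the weaker *ELF3* match, are given in the table for a gene on the opposite strand as well. The methods describe strand-specific libraries, but whether strand was used in counting is not given in the sources used here.

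Other genes of the clock and light pathways were found by the symbol of their match. Of 20 further clock-associated rows, 19 were above the minimum, with a median log2 ratio of -0.08, and 1 was past 1.5-fold in each direction (5.26% each, against 4.13% higher and 2.55% lower of all rows). The *GRP8* match GRMZM2G165901, an RNA-binding protein whose *Arabidopsis* counterpart is clock-driven, had 1475 FPKM in *ifc* and 921 FPKM in WT, a 1.60-fold rise. The *GRP7* match GRMZM2G080603 had 5697 FPKM in *ifc* and 4187 FPKM in WT, not past 1.5-fold. The *SRR1* match GRMZM2G178795, whose *Arabidopsis* counterpart acts in phytochrome B signalling and clock function, fell 1.51-fold to 1.77 FPKM in *ifc*, against 2.66 FPKM in WT, and was above 2 FPKM in WT alone.

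Of 42 further light signalling rows, 38 were above the minimum, with a median log2 ratio of -0.02. In *ifc* 17 were higher and 21 lower (44.7% higher, against 45.9% of all rows). The 2 past 1.5-fold were higher in *ifc* (5.26%, against 4.13% of all rows) and none was lower (2.55% of all rows). A match of *CIB1*, a partner of cryptochrome (GRMZM2G176289), had 2.72 FPKM in *ifc* and 1.27 FPKM in WT, above the minimum in *ifc* alone. The other *CIB1* match above the minimum (GRMZM2G101350), named after its values were seen, had 11.9 FPKM in *ifc* and 8.21 FPKM in WT. It was not past 1.5-fold. GRMZM2G480516, whose match has the symbol *FAR1*, had 17.2 FPKM in *ifc* and 10.6 FPKM in WT. This symbol is that of a factor of phytochrome A signalling but is not used for it alone. The row was given no transcription factor family, whereas GRMZM2G104268, with the same symbol, was given the family FAR1. Whether GRMZM2G480516 encodes that factor, and so belongs among these rows, was not tested. *HY5*, the bZIP factor that COP1 degrades, had a match (GRMZM2G039828) at 17.7 FPKM in *ifc* and 11.95 FPKM in WT. At 1.48-fold it lay just short of the threshold, while the other *HY5* match (GRMZM2G171912), the more abundant, had 61.4 FPKM in *ifc* and 59.9 FPKM in WT. Both *HY5* matches are named for their place in the pathway, after their values were seen.

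Of 60 further photoperiod output rows (floral integrators, repressors and relatives), 52 were above the minimum, with a median log2 ratio of -0.10. Past 1.5-fold, 4 were higher and 1 lower in *ifc* (7.69% and 1.92%, against 4.13% and 2.55% of all rows). Single matches of *SVP* (GRMZM2G046885, 2.94 FPKM in *ifc* and 0.982 FPKM in WT) and of *TEM2* (GRMZM2G169654, 4.37 FPKM in *ifc* and 2.35 FPKM in WT), repressors of flowering in *Arabidopsis*, were among those that rose. So was a match of the MADS-box gene *FUL* (GRMZM2G130382), with 175.6 FPKM in *ifc* and 82.6 FPKM in WT. The other matches of these genes above the minimum, named after their values were seen, were not past 1.5-fold. Those of *SVP* were GRMZM2G059102 with 25.5 FPKM in *ifc* and 25.8 FPKM in WT, GRMZM2G370777 with 3.98 FPKM in *ifc* and 5.41 FPKM in WT, and GRMZM5G814279 with 3.59 FPKM in *ifc* and 3.96 FPKM in WT. Those of *FUL* were GRMZM2G147716 with 136.04 FPKM in *ifc* and 148.1 FPKM in WT, and GRMZM2G079727 with 24.2 FPKM in *ifc* and 27.6 FPKM in WT. The matches of *SOC1*, a floral integrator, split: GRMZM2G070034 had 14.0 FPKM in *ifc* and 8.84 FPKM in WT, and GRMZM2G171365, named as the row that fell, had 27.6 FPKM in *ifc* and 42.0 FPKM in WT. Its other matches above the minimum were not past 1.5-fold. GRMZM2G026223 had 11.4 FPKM in *ifc* and 11.8 FPKM in WT, and GRMZM2G320549 had 6.49 FPKM in *ifc* and 5.45 FPKM in WT. Of the rows that rose, the *SVP* match was above 2 FPKM in *ifc* alone.

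The tissue was checked against its markers. Of 38 carpel and ovule rows 34 were above the minimum, among them the 4 matches of *SEP3*, which helps specify floral organs, and both matches of *CRC*, a carpel gene, named after their values were seen. The *SEP3* matches GRMZM2G159397, GRMZM2G129034, GRMZM2G097059 and GRMZM2G102161 had 694.5, 351.6, 262.3 and 194.8 FPKM in *ifc*, and 754.4, 372.4, 230.9 and 287.9 FPKM in WT. The *CRC* matches GRMZM2G088309 and GRMZM2G102218 had 118.9 and 47.5 FPKM in *ifc*, and 163.6 and 70.9 FPKM in WT. Of the 34, 5 were past 1.5-fold lower in *ifc* (14.7%, against 2.55% of all rows) and none higher (4.13%), with a median log2 ratio of -0.19. In *ifc* 4 were higher and 30 lower (11.8% higher, against 45.9% of all rows). A difference past 1.25-fold in either direction was found in 14 (41.2%, against 21.3% of all rows). The largest falls were in matches of *YAB1* (GRMZM2G167824 with 1.31 FPKM in *ifc* and 2.37 FPKM in WT, and GRMZM2G074543 with 2.00 FPKM in *ifc* and 3.22 FPKM in WT), of *INO* (GRMZM2G046829, 2.50 FPKM in *ifc* and 4.51 FPKM in WT) and of *NGA3* (AC216872.3_FG002, 2.03 FPKM in *ifc* and 3.15 FPKM in WT), factors of organ polarity and growth. The first of these *YAB1* matches was above 2 FPKM in WT alone. The remaining row past 1.5-fold, at a higher level, was the *YAB1* match GRMZM2G529859, with 16.2 FPKM in *ifc* and 24.6 FPKM in WT. Another *YAB1* match, GRMZM2G141955, had 30.3 FPKM in *ifc* and 37.2 FPKM in WT and was not past 1.5-fold. The summed level of these 38 rows was 3506 FPKM in *ifc* and 3888 FPKM in WT. In ovaries, fewer cells of a type and less RNA per cell cannot be told apart. Green tissue, where photoreceptors and clock outputs are also abundant, was followed by 52 photosynthesis rows. They summed to 1043 FPKM in *ifc* and 1088 FPKM in WT. Above the minimum were 46 of them, with a median log2 ratio of -0.04. In each direction 1 of these 46 was past 1.5-fold, where 4.13% of all rows were past it higher and 2.55% lower. A match of *GAPB*, a Calvin cycle enzyme (GRMZM5G845611), had 20.6 FPKM in *ifc* and 7.48 FPKM in WT, and a match of the photosystem gene *PSBX* (GRMZM2G380414) had 11.7 FPKM in *ifc* and 18.1 FPKM in WT. The 9 stamen and pollen rows summed to 63.3 FPKM in *ifc* and 61.4 FPKM in WT, with 2 of them under 2 FPKM and none past 1.5-fold. The part of tissue makeup in the values of the members was not tested.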

How the data were processed

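RNA of maize ovaries was sequenced from 3 *ifc* and 3 WT libraries. Per the methods, ribosomal RNA was removed, reads were trimmed with Trimmomatic, aligned with TopHat2 to B73 RefGen_v3 and restricted to exons with BEDTools. The deposited FPKM are the output of Cufflinks and Cuffdiff, which the authors ran on the pooled reads of each phenotype, scaled by quartiles and corrected for reads of several origins and for uneven fragment coverage. Pooling leaves no error and hides any library that stands apart. The table's columns of fold change, log2 fold change, direction, p-value, q-value and significance are the authors' own comparison and were not used, nor were values per library from elsewhere.

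Plain log2 ratios of *ifc* over WT FPKM were computed for rows above 2 FPKM in either phenotype, and called past 1.5-fold, with no test. The members and lists were chosen with earlier results of these data known. In the report are named every clock and light input member above the minimum, every called member and every *FT* match. The 5 strongest and 5 most different CO-like and DBB rows are named too. So are sets of copies on both sides of 1 and up to 5 called rows per list. Rows in the lists whose symbols also name unrelated proteins (cinnamoyl-CoA reductase, carotenoid isomerase, a histone methyltransferase in the clock list, a CIPK kinase, VirE2-interacting proteins, methionine synthase) were removed after the values were seen. Rows with the symbol *FAR1* were kept. Of the 66 identifiers, 44 are listed in RefSeq (Zm-B73-REFERENCE-NAM-5.0), used for names only. In 4 symbol cells a date number stands in place of a symbol. Alternatives covered the threshold, the minimum, pseudocounts of 1 and 0.1, 4 scalings and the choice of rows. Python 3.11.15, numpy 2.4.6, pandas 2.3.3 and matplotlib 3.10.9 were used.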

Additional observations from a re-analysis of the deposited data

How the results depend on the processing

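No paired analysis was possible because the table holds 1 pooled value per phenotype, and no library could be left out for the same reason. The count of members past 1.5-fold higher in *ifc*, 1 as reported, was 0 at a 2-fold threshold, 0 with a minimum of 10 FPKM, 0 with a pseudocount of 1 and 2 with no minimum (the second being the *STH2* match GRMZM2G131982). With the phenotypes set to the same total FPKM it was 61, and the medians of log2 ratios became 1.09 for all members, 1.08 for clock, 1.02 for light input and 1.15 for output genes. A single row, GRMZM2G070931, with 877143 FPKM in WT (55.6% of the WT total) and listed at 0 in *ifc*, sets this scaling: without it the shift on the log2 scale is -0.05 in place of 1.13, and the count is 1. The count lower in *ifc* was 0 under each alternative. Each median kept within 0.1 of its reported value under all other alternatives, a limit chosen because no spread is known. Signs changed in 5 members with the same median ratio, 5 with the same total without that row and 4 with the same upper quartile. With 1 row per gene, phytochrome A changed sign. Adding the *LUX* rows, or counting the pair that RefSeq joins once (an alternative chosen after seeing the data), left both counts at their reported values.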

Other observations

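Gene Ontology terms in the table give a further view of rhythmic and light-responsive genes, chosen after the values were seen. Terms naming circadian rhythm were attached to 40 rows, of which 10 are members, and all 40 were above 2 FPKM. Among the 30 that are not members, the median log2 ratio was -0.05, and 3 rows were past 1.5-fold. Of these, 1 was higher and 2 lower in *ifc* (3.33% and 6.67%, against 4.13% and 2.55% of all rows). GRMZM5G804658, a match of *Fes1A*, had 18.9 FPKM in *ifc* and 10.1 FPKM in WT (log2 ratio 0.90). GRMZM2G129954, a match of *ARR9*, a response regulator of cytokinin signalling, had 7.16 FPKM in *ifc* and 11.9 FPKM in WT (log2 ratio -0.73). The third was the *SRR1* match GRMZM2G178795. Terms naming photoperiodism were attached to 53 rows that are not members, with a median log2 ratio of -0.07 and a range of -0.35 to 0.33 over the 52 above the minimum, so that none was past 1.5-fold. Terms naming red or far-red light were attached to 64 rows that are not members, with a median log2 ratio of -0.09 over the 56 above the minimum. Past 1.5-fold were 3 rows, 2 higher and 1 lower in *ifc* (3.57% and 1.79%, against 4.13% and 2.55% of all rows). GRMZM2G098520, a small chain of ribulose bisphosphate carboxylase, had 5.63 FPKM in *ifc* and 2.76 FPKM in WT. GRMZM2G007441, a chloroplast signal recognition particle component, had 3.82 FPKM in *ifc* and 2.27 FPKM in WT. GRMZM2G078798, a gibberellin 2-oxidase, had 1.41 FPKM in *ifc* and 2.93 FPKM in WT, above the minimum in WT alone. Among 36 rows above the minimum with a term naming blue light, not members, the median log2 ratio was -0.0034. GRMZM2G098520 and GRMZM2G007441 were again the rows past 1.5-fold, both higher in *ifc* (5.56%, against 4.13% of all rows).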
